A study of Mus musculus with 4 samples.

Results

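The interferon signalling and antiviral genes Stat2, Irf9, Irf1, Irf7, Ifit1, Ifit3, Oas1a, Oasl2 and Isg15 were followed in mouse induced pluripotent stem (iPS) cells, fibroblasts and embryonic stem (ES) cells. They were taken as all probes of the array, controls left out, whose annotated gene name was one of these, with the older names Isgf3g for Irf9 and G1p2 for Isg15. This gave 11 of 41174 gene probes and 9 of 28478 gene names. Irf1 and Irf9 had 2 probes each and the other genes 1.

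RNA was measured on 4 Agilent whole-genome arrays with 2 colours. The red dye carried RNA of an iPS cell clone, harvested 30 days after transduction (2 arrays), or of mouse embryonic fibroblasts (MEFs) collected after several passages (2 arrays). The green dye carried RNA of the ES cell line CGR8.8 on all 4 arrays. ES and iPS cells were kept in leukemia inhibitory factor at 1000 IU/ml, and the protocol for the red channel of the MEF arrays names ES and iPS cells only. The iPS cells are 1 clone. The factors and the vector used for transduction, the parental fibroblasts and any interferon treatment are not given in the labels. The arrays of a group are labelled biological replicates 1 and 2, and no label says that cultures were separate. The spread behind each p-value is that between arrays of a group, pooled over both groups and moderated over all tested probes. That spread could be technical in part.

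As background, type I interferons bind the receptor chains Ifnar1 and Ifnar2 and activate the kinases Jak1 and Tyk2. The transcription factor Stat2 is then phosphorylated and, in a complex with Irf9, binds interferon-stimulated response elements in the promoters of antiviral genes. Irf1 and Irf7 are further factors of this family, Irf7 amplifying interferon production. Ifit1 binds foreign RNA and Ifit3 is a related protein, Oas1a makes the second messenger that activates RNase L, Oasl2 is a related protein with ubiquitin-like repeats, and Isg15 is a ubiquitin-like protein that is attached to other proteins. Mouse ES cells are known for a weak interferon response compared with fibroblasts.

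Upstream stretches of 4 effector genes are shown because the arrays gave these genes different ratios while all 4 hold the core of the interferon response element. Each is 250 bases before the RefSeq start (GRCm38.p6), 5′ to 3′ on the strand of the gene, and capitals mark matches, on either strand, to that core: GAAA, any 2 bases, GAAA. Isg15 lies on the minus strand (chr4:156200819-156201068), Ifit1 on the plus strand (chr19:34640639-34640888), Ifit3 on the plus strand (chr19:34583279-34583528) and Oas1a on the minus strand (chr5:120907526-120907775).
Isg15: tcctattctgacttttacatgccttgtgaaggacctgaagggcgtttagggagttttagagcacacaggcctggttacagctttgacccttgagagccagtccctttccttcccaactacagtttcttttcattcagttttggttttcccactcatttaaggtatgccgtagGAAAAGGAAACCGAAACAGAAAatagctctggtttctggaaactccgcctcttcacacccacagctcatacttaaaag
Ifit1: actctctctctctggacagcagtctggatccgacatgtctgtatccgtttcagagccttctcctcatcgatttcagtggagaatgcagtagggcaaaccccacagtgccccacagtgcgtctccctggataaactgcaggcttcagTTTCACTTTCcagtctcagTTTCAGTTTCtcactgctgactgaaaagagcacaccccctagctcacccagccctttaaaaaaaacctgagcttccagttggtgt
Ifit3: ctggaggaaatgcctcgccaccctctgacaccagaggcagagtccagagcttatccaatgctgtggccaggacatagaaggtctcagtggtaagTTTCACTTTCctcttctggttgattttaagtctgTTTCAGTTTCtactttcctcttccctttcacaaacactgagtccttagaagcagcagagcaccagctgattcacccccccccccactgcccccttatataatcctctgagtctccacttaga
Oas1a: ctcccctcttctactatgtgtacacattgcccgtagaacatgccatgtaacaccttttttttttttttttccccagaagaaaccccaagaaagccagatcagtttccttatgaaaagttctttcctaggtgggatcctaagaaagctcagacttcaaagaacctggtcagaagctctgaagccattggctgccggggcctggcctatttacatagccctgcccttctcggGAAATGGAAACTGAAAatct
Isg15 held 3 overlapping matches, the first starting 78 bases upstream. Ifit1 held 2 separate matches, at 104 and 85 bases, and Ifit3 held 2 at 156 and 122 bases. Oas1a held 2 overlapping matches at 20 and 14 bases. Stat2 held 1 match, 222 bases upstream, so 5 of the 9 genes had one in a window of 300 bases (250 before to 50 after the start), against 3.44% of all 32851 RefSeq windows of that length. The gamma-activated motif TTCNNNGAA, searched on both strands and not overlapping the first motif, was found for Irf1 (90 bases upstream) and Oas1a (98 bases), and in 8.3% of all windows. No match in a window says only that these letters are absent from it.

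Between 61.05% and 63.37% of gene probes were well above background per channel, and 27701 probes could be tested. Ratios over all tested probes correlated between replicate arrays at r = 0.9922 for iPS cells and 0.989 for MEFs. In MEFs 6 of 6 fibroblast markers were higher and 6 of 6 pluripotency markers lower than in ES cells. In iPS cells 4 of 6 pluripotency markers were higher than in ES cells, including Nanog (2.26 ± 0.049 on the log2 scale, SE). Pou5f1 was lower (-1.35), and Zfp42 was not called (-0.61, but -1.36 at its other probe). Under another background fit, given below, none of these 6 markers was called in either group. Fibroblast markers were also present in the ES RNA: their summed linear intensity was 2250 to 2257 on iPS arrays, 653524 to 670684 on MEF arrays and 26391 to 32653 in the ES channel. A call here means an adjusted p under 0.05 in limma's moderated test over all tested probes (Benjamini-Hochberg) and a difference of at least 2-fold. The ratio against 0 was the test over ES cells, which leaves out the spread of ES cultures, and dyes were not swapped, so a dye effect of a probe cannot be told apart from a difference over ES cells.

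In iPS cells the antiviral effectors Isg15, Oasl2, Ifit3 and Ifit1 and the factor Irf1 were lower than in ES cells, from at least 2.38-fold (Ifit1) to 13.1-fold (Isg15). In MEFs Isg15, Oasl2 and Irf1 were lower as well, while Irf9 was higher and Ifit1 and Ifit3 stayed within 2-fold of ES cells. Against MEFs, iPS cells had less Isg15, Ifit1 and Ifit3 and more Oas1a. Over probes, 6 of 11 were called lower in iPS cells than in ES cells and none higher. Of all tested probes, 10.7% were called lower and 7.96% higher. Of the 11, 3 had a positive ratio with unadjusted p under 0.05, as did 10722 of all 27701 tested probes. In MEFs over ES cells 1 of 11 was called higher and 4 lower, against 12.6% and 12.4% of all probes, and in iPS cells over MEFs 1 was higher and 3 lower, against 15.2% and 17.6%. Counted by gene at its brightest probe, the medians of the 9 log2 ratios were -1.25 for iPS cells over ES cells, 0.23 for MEFs over ES cells and -0.58 for iPS cells over MEFs. Irf7 and Ifit1, not well above background in iPS cells, entered the first and the last at their bounds, so these medians are themselves bounds. The medians of all tested probes in these comparisons were -0.01, -0.01 and 0.01. The ES levels of single probes varied by 0.044 to 0.144 (SD of log2 intensity) between the 4 green channels. Both comparisons over ES cells use the same green RNA, and in these bulk samples fewer cells expressing a gene and less RNA per cell cannot be told apart.

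**Figure D1:**
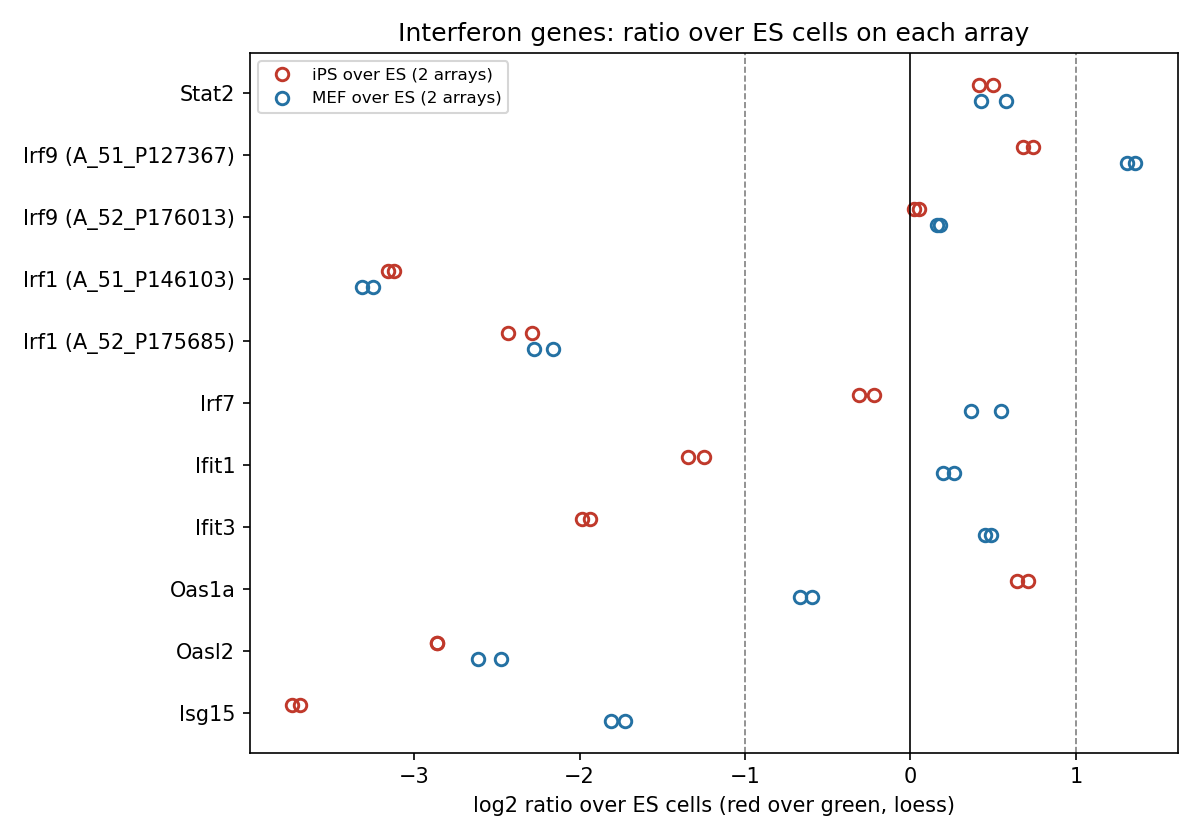
Log2 ratio over ES cells (horizontal axis) of the 11 probes on each of 2 iPS arrays (red, upper) and 2 MEF arrays (blue, lower); solid line at 0, dashed lines at 2-fold. The 2 arrays of a group lie close together, and the groups are farthest apart for Ifit3, Isg15, Ifit1 and Oas1a.

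Among the signalling factors, Stat2, a transcription factor of the type I interferon response (probe at mm8 chr10:127695074-127695133), was within 2-fold of ES cells in both groups. Its log2 ratios over ES cells were 0.50 and 0.41 on iPS arrays and 0.43 and 0.57 on MEF arrays, overlapping between the groups. The fitted ratios were 0.46 ± 0.056 in iPS cells (adjusted p = 0.000195, limma) and 0.50 ± 0.056 in MEFs (9.63e-05). Both passed the p threshold, as did most tested probes, but stayed under 2-fold. The difference of iPS cells over MEFs was -0.05 ± 0.079 (adjusted p = 0.603) and turned positive under 4 other settings and when MEF replicate 2 was left out, so it has no settled direction.

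Irf9, the DNA-binding subunit of the complex with Stat2, was the member called higher in MEFs. Its brightest probe (A_51_P127367, mm8 chr14:54563490-54563549) had log2 ratios of 0.74 and 0.68 on iPS arrays and 1.31 and 1.36 on MEF arrays, without overlap. The fit gave 0.71 ± 0.048 in iPS cells, under 2-fold, and 1.33 ± 0.048 in MEFs, 2.52-fold over ES cells (adjusted p = 1.95e-07, limma). In iPS cells over MEFs it stood at -0.62 ± 0.068 (adjusted p = 9.16e-05), also under 2-fold. The other Irf9 probe (A_52_P176013) was dim, well above background on 1 of 2 iPS arrays, both MEF arrays and none of the 4 ES channels. Its ratios were 0.05 and 0.02 on iPS arrays and 0.18 and 0.16 on MEF arrays, and it was called in no comparison. With the processed signals of the scanner software it was called higher in MEFs over ES cells (1.14, adjusted p = 0.00767, limma).

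Irf1, an activator induced by interferon gamma, was far lower in both iPS cells and MEFs than in ES cells. At its brightest probe (A_51_P146103, mm8 chr11:53620636-53620695) the normalized log2 intensity was 12.42 and 12.36 in iPS cells, 12.22 and 12.19 in MEFs, and 15.43 to 15.54 in the 4 ES channels. The log2 ratios were -3.12 and -3.16 on iPS arrays and -3.31 and -3.25 on MEF arrays. Irf1 was thus 8.83-fold lower in iPS cells (adjusted p = 7.4e-09, limma) and 9.71-fold lower in MEFs (5.2e-09) than in ES cells. The other Irf1 probe (A_52_P175685) was also lower, 5.13-fold in iPS cells and 4.65-fold in MEFs. Between iPS cells and MEFs the probes gave 0.14 ± 0.068 and -0.14 ± 0.081, of opposite sign and not called (adjusted p = 0.098 and 0.145).

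Irf7, the factor that amplifies interferon production (chromosome 7), was close to background. Its probe was well above background on neither iPS array, on both MEF arrays and in 3 of 4 ES channels. The log2 ratios over ES cells were -0.31 and -0.22 on iPS arrays and 0.55 and 0.36 on MEF arrays, without overlap and of opposite sign. The limma fit gave -0.27 ± 0.060 in iPS cells (adjusted p = 0.0048), 0.46 ± 0.060 in MEFs (0.000245) and -0.72 ± 0.085 in iPS cells over MEFs (0.00014), all under 2-fold. Since iPS cells gave only a bound, Irf7 was at least 1.49-fold lower in iPS cells than in MEFs, taking the lowest signal well above background on each array, or the probe's own where higher, as the level of iPS cells. With the processed signals of the scanner software, MEFs over ES cells (1.66, adjusted p = 0.0495, limma) and iPS cells over MEFs (-3.21, 0.0229) were called.

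Isg15, the ubiquitin-like effector, was lower in both groups than in ES cells. All its values rest on 1 probe, which the array annotation places on chromosome 17 although RefSeq places the gene on chromosome 4. Its normalized log2 intensity was 7.80 and 7.92 in iPS cells, 9.78 and 9.66 in MEFs, and 11.46 to 11.62 in the 4 ES channels. The 3 groups did not overlap, with iPS cells lowest and ES cells highest. Isg15 was 13.1-fold lower in iPS cells (log2 -3.71 ± 0.049, adjusted p = 5.72e-09, limma) and 3.41-fold lower in MEFs (-1.77 ± 0.049, 5.56e-08) than in ES cells. iPS cells were 3.86-fold below MEFs (-1.95 ± 0.069, adjusted p = 2.1e-07). Whether the probe also meets transcripts of other loci was not tested.

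Ifit1 and Ifit3, both on chromosome 19, were lower in iPS cells than in ES cells and than in MEFs. Their probes lie at mm8 chr19:34654612-34654671 (Ifit3) and chr19:34715303-34715362 (Ifit1). Ifit3 had log2 ratios of -1.94 and -1.99 on iPS arrays and 0.45 and 0.49 on MEF arrays. It was 3.90-fold lower in iPS cells than in ES cells (adjusted p = 3.85e-08, limma) and 5.40-fold lower than in MEFs (6.19e-08), while in MEFs it stood at 0.47 ± 0.047, under 2-fold. Ifit1 had log2 ratios of -1.34 and -1.25 on iPS arrays against 0.26 and 0.20 on MEF arrays. Its probe was not well above background on either iPS array, so Ifit1 was at least 2.38-fold lower in iPS cells than in ES cells (adjusted p = 3.97e-07, limma) and at least 2.81-fold lower than in MEFs (8.74e-07). In MEFs over ES cells Ifit1 stood at 0.23 ± 0.051 (adjusted p = 0.00392). Whether the Ifit3 probe is shared with its near copy Ifit3b was not tested.

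Of the 2 members of the oligoadenylate synthetase family, Oasl2 (probe at mm8 chr5:115173158-115173217) was lower in both groups than in ES cells, with log2 ratios of -2.86 and -2.86 on iPS arrays and -2.61 and -2.48 on MEF arrays. It was 7.27-fold lower in iPS cells (adjusted p = 1.29e-08, limma) and 5.84-fold lower in MEFs (1.53e-08) than in ES cells, and iPS cells over MEFs stood at -0.32 ± 0.074 (0.00548), under 2-fold. Oas1a (chr5:121158956-121159015) had ratios of 0.65 and 0.71 on iPS arrays and -0.60 and -0.67 on MEF arrays, on opposite sides of ES cells. Each was under 2-fold over ES cells (0.68 ± 0.049 in iPS cells, -0.63 ± 0.049 in MEFs), but iPS cells were 2.48-fold above MEFs (1.31 ± 0.070, adjusted p = 1.69e-06, limma). The gene has close paralogues in the mouse, and whether the probe tells them apart was not tested.

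**Figure D2:**
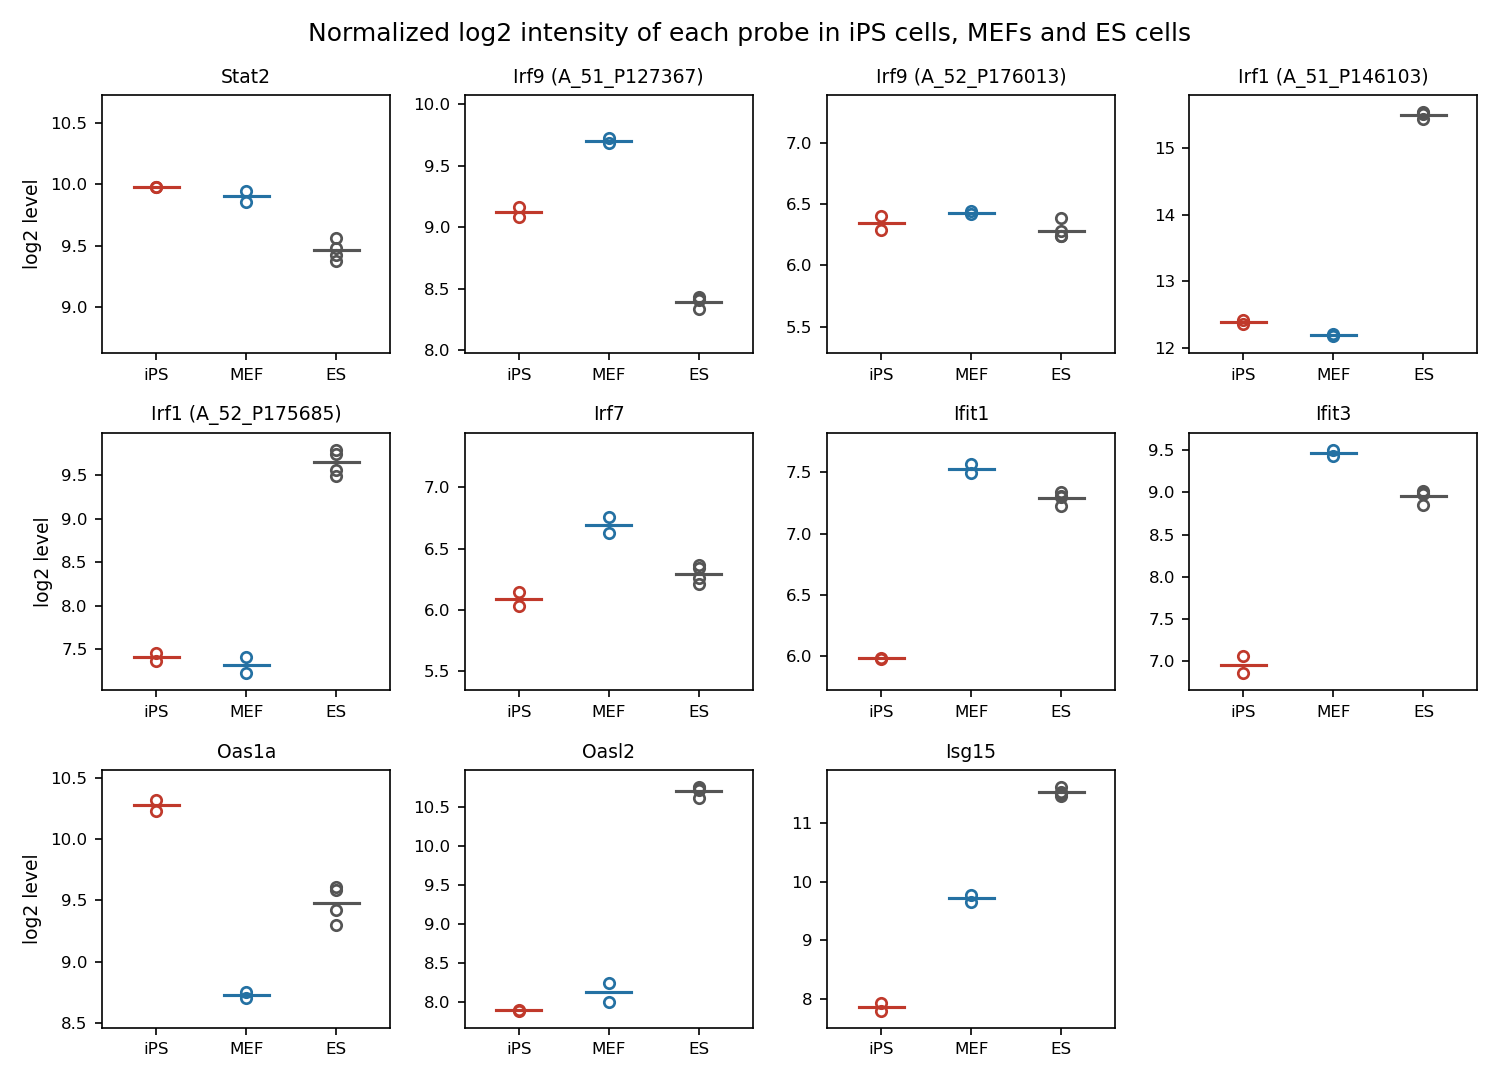
Normalized log2 intensity (vertical axis, a separate range for each probe) of the 11 probes in iPS cells (red, 2 arrays), MEFs (blue, 2 arrays) and ES cells (grey, green channel of 4 arrays); bars mark means. ES cells stand above both other groups for Irf1, Oasl2 and Isg15, and iPS cells stand lowest for Isg15, Ifit1, Ifit3, Oasl2 and Irf7. Ifit1 and Irf7 were not well above background in iPS cells.

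**Figure D3:**
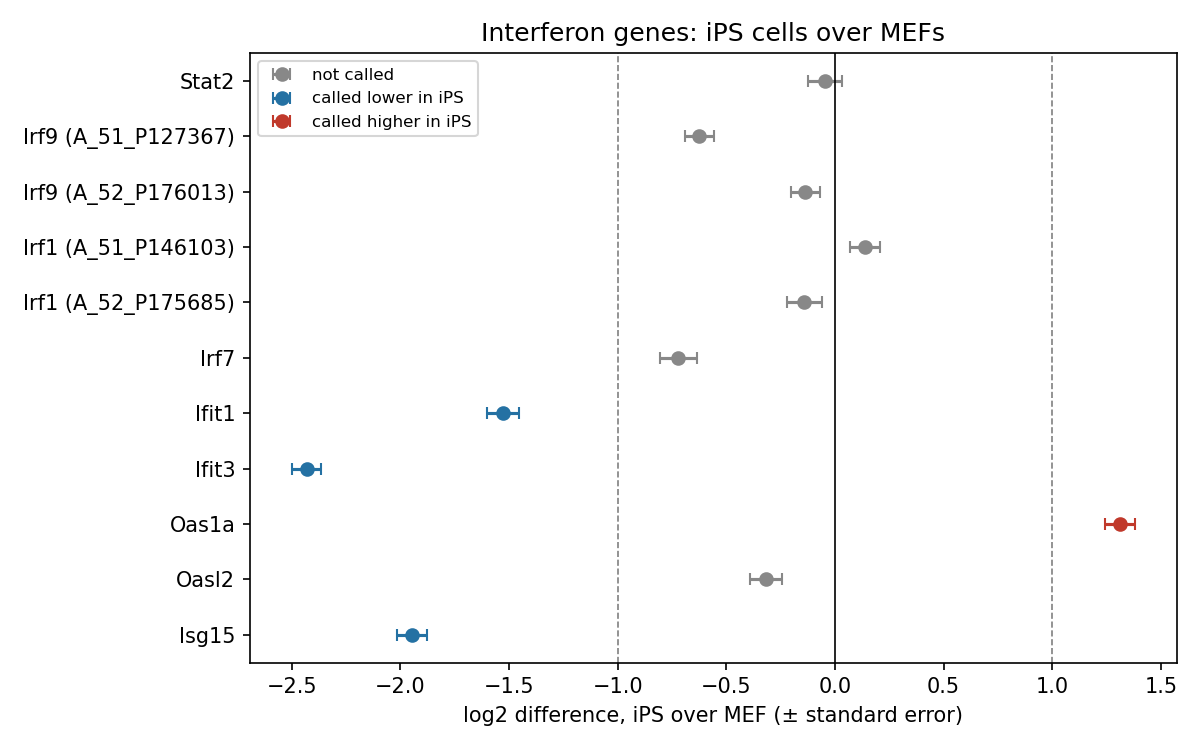
Log2 difference of iPS cells over MEFs (horizontal axis) with its standard error for the 11 probes, from the limma fit; dashed lines mark 2-fold. Ifit3 (-2.43), Isg15 (-1.95) and Ifit1 (a bound, at least 2.81-fold, since iPS cells were not well above background) were called lower and Oas1a (1.31) higher.

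Several of these calls depend on the background fit. Fitted over all spots, the array of MEF replicate 1 gave Isg15 -0.22, Oasl2 -0.15 and Irf9 (A_51_P127367) 0.06, where MEF replicate 2 gave -1.81, -2.48 and 1.36. That array alone held 14 spots with a local background above 500, all marked as outliers by the scanner software. With that fit, 4 probes were no longer called in MEFs over ES cells (adjusted p = 0.353 each, limma): Isg15 (-1.01), Oasl2 (-1.31), Irf9 (0.71) and the dimmer Irf1 probe (-1.11). For iPS cells over ES cells Oasl2 (-2.86, adjusted p = 0.0518, limma) and the dimmer Irf1 probe (-2.36, 0.0616) lost their calls at nearly the same ratios. For iPS cells over MEFs Oas1a (1.02, adjusted p = 0.101, limma) and Isg15 (-2.70, 0.074) lost theirs, with a larger difference for Isg15.

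Of 9 genes that carry the signal, 6 were called higher in MEFs than in ES cells and the other 3 were not (median 1.37). In that comparison 12.6% of all probes were called higher. The 9 are receptor chains, kinases and the transcription factor Stat3, which is among the 6. With the background fitted over all spots, limma called none of the 9 in MEFs over ES cells (3 had a positive ratio with unadjusted p under 0.05), and their median ratio was 0.29 on the array of MEF replicate 1 and 1.36 on that of MEF replicate 2. That fit left 2 lower in iPS cells than in ES cells and 2 lower than in MEFs. In iPS cells 3 were lower than in ES cells and 6 were not called (median -0.36), and 6 of 9 were lower in iPS cells than in MEFs (median -1.65). Of all probes 10.7% and 17.6% were called lower in these comparisons. The chains of the type I receptor were not called in iPS cells over ES cells (Ifnar1 -0.36, Ifnar2 0.48), and Ifnar2, unlike Ifnar1, was called in MEFs over ES cells (1.37). At the second Ifnar2 probe the ratio over ES cells was -0.24 for iPS cells, of the opposite sign, and 1.26 for MEFs, and iPS cells were called lower than MEFs, which the brightest probe did not show (-0.89). The interferon gamma receptor chain Ifngr2 had ratios of -0.96 in iPS cells and of 2.71 in MEFs, and Ifngr1 of -1.07 and 1.06. Il10rb, a chain shared by the interferon lambda receptor, stood at -1.05 and 1.81. The kinases Jak2 (-1.66 in iPS cells, -0.11 in MEFs) and Jak1 (0.20, 1.85) differed between the groups, each being lower in iPS cells than in MEFs at its brightest probe (another stood at -0.05 for Jak2 and -0.58 for Jak1), while Tyk2 stood within 2-fold of ES cells in both (0.24, -0.14). Stat3, which also carries the signal of leukemia inhibitory factor, was not called in iPS cells (0.26) and was higher in MEFs (2.80). In iPS cells over MEFs it was called lower (-2.55).

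The partners of Isg15 did not move as one. Usp18, the protease that removes Isg15 from proteins, was lower in iPS cells (-2.99 ± 0.047, adjusted p = 7.6e-09, limma) and in MEFs (-1.13 ± 0.047) than in ES cells. Uba7, the activating enzyme, was lower in iPS cells (-1.84) but higher in MEFs (1.14), with iPS cells over MEFs at -2.98. The conjugating enzyme Ube2l6 (0.99 in iPS cells, 0.51 in MEFs) and the ligase Herc6 (0.51, 0.28) were not called over ES cells. The other tested Herc6 probe had the opposite sign (-0.28 in iPS cells, -0.29 in MEFs). Trim25, an E3 ligase, was higher in iPS cells (1.22 ± 0.049, and 2.41 at its other probe) and stood at 0.02 in MEFs.

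Of 23 other antiviral effectors tested, 8 were lower in iPS cells than in ES cells, 3 were higher and 12 were not called (median -0.47). Rtp4, an interferon-induced chaperone, was lower in iPS cells (-4.63 ± 0.061) and in MEFs (-1.91 ± 0.061), as was the GTPase Mx2 (-2.22 and -1.35). The 3 higher genes, named here after their values were seen, were the zinc-finger antiviral protein Zc3hav1 (1.11, but 0.86 and 0.32 at its other probes), the synthetase Oas2 (1.06) and its relative Oasl1. The Oasl1 probe was well above background on no ES channel, so iPS cells were at least 4.41-fold higher. In MEFs over ES cells 2 of 23 were higher, including Ifi27 (2.04, but -0.89 at its other probe), 6 were lower and 15 were not called (median -0.13). In iPS cells over MEFs 3 were higher, 6 lower and 14 not called (median -0.37), with Ifi27 at -3.30 (-1.40 at its other probe) and Rtp4 at -2.72. Of all probes, 7.96%, 12.6% and 15.2% were called higher in these comparisons in that order, and 10.7%, 12.4% and 17.6% lower.

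Of 12 tested genes that sense foreign nucleic acid or pass on that signal, 3 were higher in MEFs than in ES cells and 1 was lower, and 8 were not called (median 0.19). Sting1, the adaptor of the DNA sensor cGAS, was 3.96 ± 0.049 above ES cells in MEFs and stood at 0.91 in iPS cells. Ticam1, the adaptor of the RNA sensor Tlr3, was 1.70 ± 0.052 above ES cells in MEFs and stood at 0.13 in iPS cells. In iPS cells over ES cells 1 was lower and 11 were not called (median -0.17). That gene was Ifih1, the sensor of long double-stranded RNA, not well above background on iPS arrays and so at least 7.19-fold lower than in ES cells. In iPS cells over MEFs 4 of 12 were lower (median -0.35), including Sting1 (-3.05) and Ifih1 (at least 4.64-fold lower). Of all probes, 12.6%, 7.96% and 15.2% were called higher in these comparisons in that order, and 12.4%, 10.7% and 17.6% lower. Of the interferons themselves, 8 of 9 listed genes were on the array, with 9 probes, and none could be tested. In no channel were 8 of the probes well above background. The Ifna1 probe was well above it on 1 of 2 iPS arrays, 1 of 2 MEF arrays and 2 of 4 ES channels. It was thus so on all arrays of no RNA.

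With the background fitted over all spots, limma also called none of the 12 sensors, the 23 other effectors and the 5 partners of Isg15 in MEFs over ES cells; at unadjusted p under 0.05, 2 of the effectors had a positive and 1 a negative ratio. That fit left 1 sensor lower in iPS cells than in MEFs, 1 effector higher and 2 lower, and 1 partner higher and 1 lower. Of the cell markers in MEFs over ES cells, limma then called 3 of 6 fibroblast markers higher, and none of the 6 pluripotency or 8 macrophage markers at either an adjusted or an unadjusted p under 0.05. In iPS cells over ES cells it called no pluripotency marker (1 had a positive ratio with unadjusted p under 0.05; median 1.72). There 3 fibroblast markers and 1 macrophage marker were lower. In iPS cells over MEFs it called 3 fibroblast markers lower and no pluripotency or macrophage marker.

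**Figure D4:**
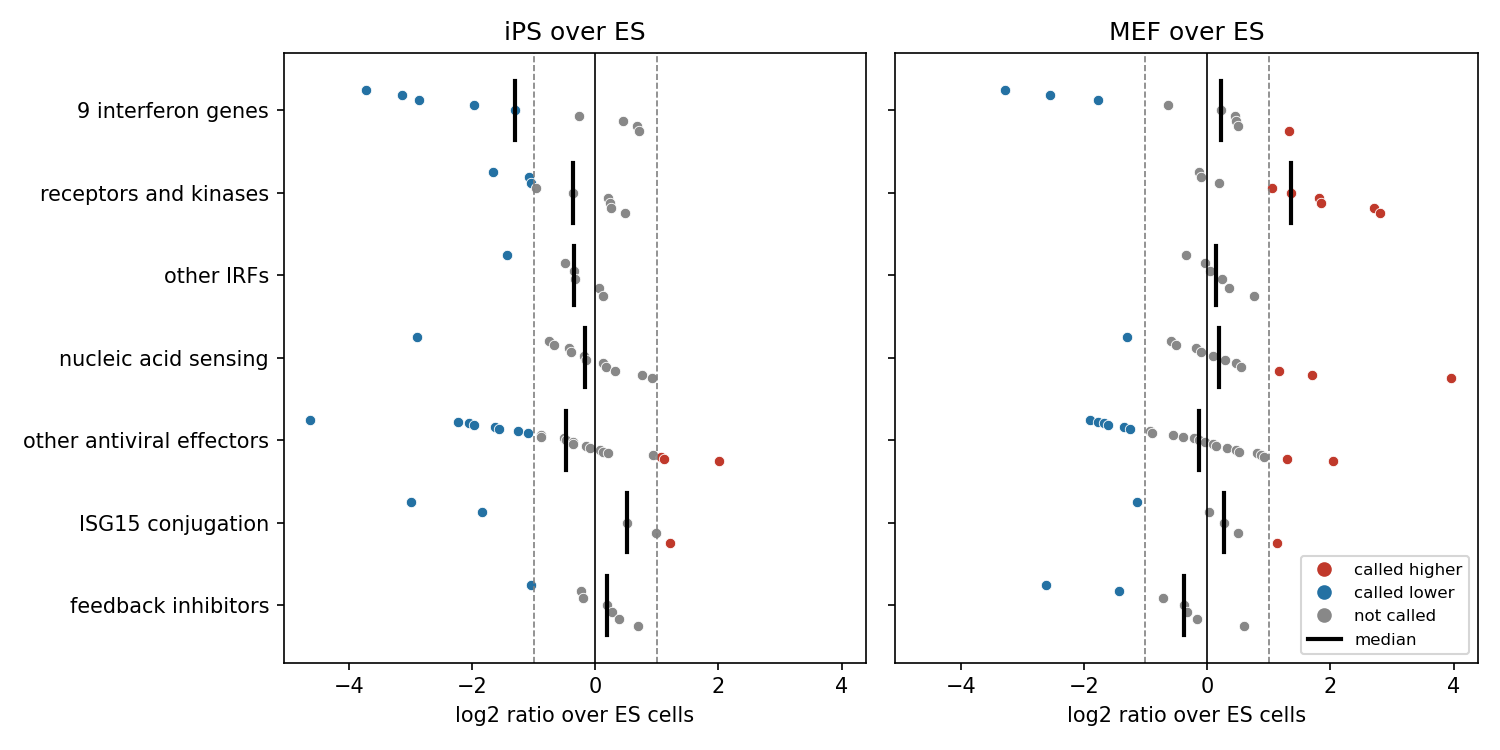
Log2 ratio over ES cells (horizontal axis) of each tested gene of 7 gene groups in iPS cells (left) and MEFs (right), at its brightest probe; black bars mark medians and dashed lines 2-fold. The receptors and kinases, with Stat3 counted among them, sit to the right in MEFs (median 1.37) and lie lower in iPS cells (median -0.36). The background was fitted without marked spots.

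Macrophages are cells that a fibroblast culture could hold. The 8 tested macrophage markers had a summed linear intensity of 1100 to 1123 on iPS arrays, 7843 to 8278 on MEF arrays and 1615 to 1660 in the ES channel. Most of the sum on MEF arrays was Lyz2: without it the other 7 summed to 1038 to 1049 on iPS arrays, 1289 to 1315 on MEF arrays and 1403 to 1559 in the ES channel. In MEFs over ES cells 3 markers were higher, Lyz2 (4.87, and 0.63 at its other probe), Cd14 (1.38) and Adgre1 (1.35), Cd68 was lower (-1.69) and 4 were not called. In that comparison 12.6% of all probes were called higher and 12.4% lower. Cd68 (-1.05) and Aif1 (-1.35, but -0.35 at its other probe) were lower in iPS cells than in ES cells, where 10.7% of all probes were called lower. Both Itgam probes were well above background in no channel. In iPS cells 5 of 6 fibroblast markers were lower than in ES cells, including Col1a1 (-5.77 ± 0.048), as were Isg15, Ifit1, Ifit3, Oasl2 and Irf1. In MEFs, where fibroblast markers were higher than in ES cells (Col1a1 4.30), Isg15, Oasl2 and Irf1 were lower than in ES cells. There Ifit1 (0.23) and Ifit3 (0.47) were not called and Irf9 was higher (1.33). The part of these cells in the results was not tested.

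The genes nearest to 2 members over the 4 arrays were found by Euclidean distance between log2 ratios, over 27701 probes. Nearest to Stat2 were Calr3 (0.062), Gja5 (0.065) and Slc25a37 (0.073). Nearest to Isg15 were Edn1 (0.185), with ratios of -3.81 and -3.84 on iPS arrays and -1.79 and -1.86 on MEF arrays, Epha1 (0.327) and Pgap4 (0.394).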

How the data were processed

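Total RNA of mouse cells was amplified, labelled and hybridized to 4 two-colour arrays of 1 slide, with 1 µg of RNA per labelling per the labels' protocols. The authors' reader was Agilent Feature Extraction, version 10.5.1.1, at a scan resolution of 5 micron, per the file headers. The deposited mean spot intensity and median local background intensity are not normalized. The deposited log10 ratio (red over green) is that software's own (LOWESS smoothing factor 0.25 per the file headers), equals the deposited value table (median 0 on each array), and served as an alternative. Probe coordinates are mm8 as the array annotation gives them.

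Intensities were corrected by normexp (offset 50) fitted over unmarked spots and normalized by loess (span 0.3, controls at weight 0) in limma 3.58.1 (R 4.3.3, packages jsonlite 2.0.0 and data.table, version 1.17.8). The choice of that fit was made with the calls under a fit over all spots known from earlier work. Marked spots were left out, and spots of a probe averaged. Marks on the population of the local background were not counted as outlier marks. This was decided after seeing that they would leave 8 of the 11 member probes (Isg15, Oasl2 and Irf7 lost). The count with them in MEFs over ES cells is given in the closing section. A probe was tested if well above background in 1 or more RNAs on every array of that RNA (27725 of 41174) and measured on each array (27701). All 11 member probes passed, and none was saturated.

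A linear model with 1 coefficient per group was fitted over all tested probes (lmFit, eBayes, 2 residual and 4.9 prior degrees of freedom). Calls required adjusted p under 0.05 and at least 2-fold. Bounds used intensities per channel after Aquantile normalization. With 2 arrays a group, the number of arrays limits precision. Deviations of same-numbered arrays correlated at -0.11, and the main fit did not pair arrays by replicate number. That correlation cannot tell whether same-numbered arrays were prepared together. The procedure was tested on simulated data.

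Members and gene lists were chosen with earlier results of these data known. Named were all member probes, per other list the 2 called genes of largest change per comparison, all receptors, kinases and Isg15 partners, markers, and the 3 nearest profiles of Stat2 and Isg15, with 3 antiviral effectors added after their values were seen. Some items are not reported here and were left out of the lists. A gene with several probes was read at its brightest tested probe. Exon and UTR positions of probes were not annotated, since no mm8 annotation was used. RefSeq named 24375 probes through their accession. Alternatives covered background correction, normalization, filters, marked spots, probes per gene, replicate block and leaving out each array.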

Additional observations from a re-analysis of the deposited data

How the results depend on the processing

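Over 11 member probes, the counts of calls were the same with quantile normalization, median centring and no filter on dim probes. A stricter filter left 8, of which 5, 5 and 3 were called in iPS over ES cells, MEFs over ES cells and iPS cells over MEFs. With normexp over all spots, or with marked spots kept, 1 member probe was called in MEFs over ES cells (200 of all probes) and 2 in iPS cells over MEFs (3089 and 3086 of all probes); Irf9 (A_51_P127367) in iPS cells over MEFs became 0.002 and Stat2 0.154. Processed signals called 9318 probes for iPS over ES cells, 11462 for MEFs over ES cells and 13819 for iPS cells over MEFs, with Stat2 at 0.149 in the last; in MEFs over ES cells 7 member probes were called, 3 of them higher, and in iPS over ES cells Ifit1 was -4.78, against -4.02 for Isg15. In iPS cells over MEFs, Stat2 was 0.139 with quantile normalization, and -0.12 to 0.027 when either MEF array was left out. Counting marks on the background population, chosen after seeing the data, left 3 of 8 member probes called in MEFs over ES cells. In that comparison 25.2% of the 24874 probes tested under this setting were called. Leaving out each array in turn kept 6, 5 and 4 member probes for iPS over ES cells, MEFs over ES cells and iPS cells over MEFs, and gave 5120 to 5245, 6848 to 7069 and 9053 to 9170 of all probes. With the replicate block, iPS cells over MEFs kept 4 member probes (9093 of all probes), and a crossed block, chosen after seeing the data, also gave 4. Median centring moved the median of all probes to 0.14 in iPS cells and 0.16 in MEFs over ES cells, and the share of higher calls to 62.0% (main 42.7%) and 69.6% (main 50.3%). The median of the sensors in iPS cells over ES cells turned positive with median centring (0.04) and with a stricter filter (0.13). Dim probes, such as Irf7, Ifit1 in iPS cells and 1 Irf9 probe, limit what can be measured.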

Other observations

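Of 7 genes that dampen the response, 1 was lower in iPS cells than in ES cells (the phosphatase Ptpn11, -1.04, with -0.86 and -0.40 at its other probes) and 6 were not called (median 0.19). In MEFs over ES cells 2 were lower, Ptpn6 (-2.62, but 0.17 at its other tested probe) and Ptpn2 (-1.42, but -0.07 at its other probe), both phosphatases that act on this pathway, and 5 were not called (median -0.38, and 0.03 with median centring). In iPS cells over MEFs 3 of 7 were higher, including Ptpn6 (2.89, but 0.07 at its other tested probe), Ptpn11 was lower (-1.64) and 3 were not called (median 0.86). Of all probes, 7.96%, 12.6% and 15.2% were called higher in these comparisons in that order, and 10.7%, 12.4% and 17.6% lower. With the background fitted over all spots, limma called none of the 7 in MEFs over ES cells (1 had a positive and 2 a negative ratio with unadjusted p under 0.05). In iPS cells over MEFs that fit called none higher (3 had a positive ratio with unadjusted p under 0.05) and 1 lower. Of 6 tested Irf genes and Irf-binding genes outside the main set, 1 was lower in iPS cells than in ES cells. The other 5 were not called (median of the 6 -0.34). In MEFs over ES cells limma called none of the 6 (median 0.14), and 3 had a positive and 1 a negative ratio with unadjusted p under 0.05. At that p, 11255 of all 27701 tested probes had a positive and 11828 a negative ratio in MEFs over ES cells. Irf2, a repressor of interferon genes, was not well above background on iPS arrays and was at least 2.65-fold lower there than in ES cells and at least 4.44-fold lower than in MEFs.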
